A study of Mus musculus with 10 samples.

Results

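Ifitm1, Ifitm2, Ifitm3, Bst2, Isg15, Isg20, Stat2, Irf1 and Irf9 are 9 genes of the interferon response. They were described across 10 mouse embryonic stem cell (ESC) lines. The genes were chosen by name, as interferon-induced genes and their transcription factors, and were found in the deposited table by Ensembl gene identifier. They are 9 of the 20206 genes in that table, with 1 row for each symbol. The question was what level these genes have in ESCs and whether it differs with the diet of the mother before implantation.

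The wild-type ESC lines came from C57Bl/6 blastocysts collected on embryonic day 3.5. Their mothers, aged 7 to 9 weeks, had been fed a low protein diet (LPD, 9% casein) or a normal protein diet (NPD, 18% casein) from the morning after mating. LPD lines 1, 4, 6, 20 and 40 were compared with NPD lines 8, 15, 21, 36 and 51. Each line came from a different mother and was 1 replicate, so that an effect of the line and an effect of the mother cannot be told apart. The lines were derived on mouse embryonic fibroblast feeder cells, and RNA was taken from cultures in fibroblast-free medium. No interferon was given, and the diet acted on the embryo only until blastocyst collection. Cultures were measured in bulk, so fewer cells that express a gene and less RNA per cell cannot be told apart.

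Interferons are secreted proteins that bind receptors at the cell surface and activate JAK kinases. The kinases phosphorylate STAT proteins. STAT2 acts with IRF9 in a complex that binds the interferon-stimulated response element (ISRE) of target genes. Interferon gamma acts through the gamma-activated sequence (GAS), and Irf1 is among the best known targets of that route. The IFITM proteins are small membrane proteins that hinder the entry of viruses, and Bst2 encodes tetherin, which holds budding viruses at the cell surface. Isg15 encodes a ubiquitin-like protein that is attached to other proteins, and Isg20 encodes an exonuclease that degrades RNA. Pluripotent cells are known for a weak response to interferon and for expressing some interferon-induced genes, IFITM genes among them, without it. Ifitm1 and Ifitm3 are also known from mouse primordial germ cells, where Ifitm3 is called fragilis.

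The 3 Ifitm genes lie close together on chromosome 7 of GRCm38. Ifitm2 (ENSMUSG00000060591) is at chr7:140954837-140955987 on the minus strand, Ifitm1 (ENSMUSG00000025491) at chr7:140967221-140969825 on the plus strand and Ifitm3 (ENSMUSG00000025492) at chr7:141009586-141010770 on the minus strand. The promoters of the family are shown whole because the windows searched differ between the neighbours in the interferon elements they hold. Each runs 5′ to 3′ on the strand of the gene, from 250 bases before to 50 bases after the start site (RefSeq, GRCm38.p6), and capitals mark a match to the ISRE core or to the GAS. They cover chr7:140967826-140968125 for Ifitm1, chr7:140955912-140956211 for Ifitm2 and chr7:141010695-141010994 for Ifitm3.
Ifitm1: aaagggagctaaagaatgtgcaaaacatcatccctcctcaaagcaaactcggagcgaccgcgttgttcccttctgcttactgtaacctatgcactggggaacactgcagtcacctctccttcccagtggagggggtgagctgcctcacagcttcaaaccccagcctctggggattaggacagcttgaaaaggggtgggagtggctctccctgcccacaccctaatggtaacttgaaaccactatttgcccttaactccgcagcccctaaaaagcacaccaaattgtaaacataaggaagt
Ifitm2: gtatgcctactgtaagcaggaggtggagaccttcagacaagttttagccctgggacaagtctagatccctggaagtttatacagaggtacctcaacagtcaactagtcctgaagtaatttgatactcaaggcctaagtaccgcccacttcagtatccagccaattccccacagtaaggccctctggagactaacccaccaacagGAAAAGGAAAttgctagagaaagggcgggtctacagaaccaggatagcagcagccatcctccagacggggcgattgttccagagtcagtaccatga
Ifitm3: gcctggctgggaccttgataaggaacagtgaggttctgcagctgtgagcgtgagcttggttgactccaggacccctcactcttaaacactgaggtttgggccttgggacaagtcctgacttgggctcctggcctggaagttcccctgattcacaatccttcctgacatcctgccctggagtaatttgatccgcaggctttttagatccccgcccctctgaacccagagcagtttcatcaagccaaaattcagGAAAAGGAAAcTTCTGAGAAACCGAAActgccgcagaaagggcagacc

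The ISRE core was searched on both strands as GAAA, any 2 bases and GAAA again, and the GAS as TTCNNNGAA. The ISRE core was found in 3.44% of all 32851 promoters and the GAS in 8.30%. Counted by gene, with a match in any promoter, the shares were 3.99% and 9.55% of 27025 genes. The ISRE core was present in the promoters of 5 of the 9 genes, Ifitm2, Ifitm3, Bst2, Isg15 and Stat2, and the GAS in 4, Ifitm3, Bst2, Isg20 and Irf1. Ifitm2, Ifitm3 and Isg15 held the same letters, GAAAAGGAAA, centred at position -42, 6 and -74 from the start site. Ifitm3 held a further ISRE core at position 23 and a GAS between them at 17, all after the annotated start. Ifitm1 and Irf9 held neither motif in these windows. All windows of these genes begin inside the annotated gene spans. Sequence before the annotated 5′ ends was therefore not searched, and an element there would have been missed. For Isg20, Irf1 and Irf9, more than 1 promoter is annotated and all were searched. A match describes the letters and does not show that a factor was bound.

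The matches in 4 of the other genes are shown in windows of 80 bases, to let the elements of effectors and factors be compared. The windows are chr8:71537559-71537638 on the minus strand for Bst2, chr4:156200847-156200926 on the minus strand for Isg15, chr10:128270248-128270327 on the plus strand for Stat2 and chr11:53769888-53769967 on the plus strand for Irf1. Isg15 held 3 overlapping ISRE cores. In Bst2, 2 overlapping ISRE cores followed a GAS that overlapped the first of them. The ISRE core of Stat2 was on the opposite strand, so its capitals show the reverse complement, and the capitals of Irf1 mark a GAS.
Bst2: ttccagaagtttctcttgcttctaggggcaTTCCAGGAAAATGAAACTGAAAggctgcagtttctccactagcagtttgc
Isg15: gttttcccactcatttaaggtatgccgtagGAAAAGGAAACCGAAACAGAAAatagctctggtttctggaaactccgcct
Stat2: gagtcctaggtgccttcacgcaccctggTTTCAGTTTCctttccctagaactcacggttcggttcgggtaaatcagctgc
Irf1: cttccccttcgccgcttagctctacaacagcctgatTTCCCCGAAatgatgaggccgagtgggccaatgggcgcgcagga

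The deposited values are estimated read counts per gene that were normalized between lines, and they are called values here. Depth was read from the value that 1 read was worth in genes with 1 annotated transcript. It was 20429490 to 23183926 read equivalents in the NPD lines, and 21917351, 5842070, 12350661, 24082119 and 11253844 in LPD lines 1, 4, 6, 20 and 40. The precision of low genes is thus poorest in LPD lines 4, 6 and 40, as far as counting error goes. All 10 pluripotent cell markers, Pou5f1 and Sox2 among them, had means of at least 1000 each, and their sum was 97950 to 134495 in every line. All 15 fibroblast markers had values. Their sum was 1108 to 2131 in 7 lines, 3031 in NPD line 8, 4575 in LPD line 6 and 7275 in NPD line 15. Of the defining fibroblast genes, Lum was at 0 in 7 lines and Dcn in 4, and both were highest in NPD line 15. Postn was at 0 in 3 lines and highest in LPD line 6, at 25.6. In NPD line 8, Lum and Dcn were both at 0 and Postn was at 16.1. Pdgfra, which other cells also express, ran against the sums. It was at 98.0, 160 and 208 in LPD line 6 and NPD lines 15 and 8, against 257 to 530 in the rest. Col1a1 and Col1a2 were highest in these lines, but Twist1 and Loxl1 did not follow them. Twist1 was highest in LPD line 20, at 485, with 102 in NPD line 8 and 146 in NPD line 15. Loxl1 was at 263 in NPD line 51, above 170 and 207 in NPD lines 8 and 15. The lines were described as male, but the Y-linked gene Ddx3y was at 7.70 in NPD line 15 and 174 in LPD line 4, against 1110 to 1493 in the other 8. X-linked genes were raised in NPD line 15, by 0.49 in the median on the log2 scale relative to the 10-line median. On the 6 chromosomes that carry the interferon genes, that median was between -0.03 and 0.03 in every line.

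The level of the 9 genes spanned more than 3 orders of magnitude in ESCs. As value per kilobase of exon, Ifitm2 was the highest at 8414 ± 1209 (SD, n = 10), at rank 107 of 19891 genes. Next came Ifitm3 at 3794 ± 693, at rank 213, and Bst2 at 1867 ± 349, at rank 443. Ifitm1, the nearest neighbour of Ifitm2 among the 9 genes, had 301 ± 106 per kilobase and rank 3007. The lowest value per kilobase of Ifitm2, 6371, was above the highest of Ifitm3, 5665, and every line of Ifitm3 was above every line of Bst2. Bst2 in turn had no line below the highest of Ifitm1, 534.

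The transcription factors were lower. Stat2 had 90.9 ± 20.8 per kilobase and Irf1 80.1 ± 16.7, and these neighbours overlapped, with ranges of 49.6 to 111 and 59.3 to 107. Irf9 lay below both at 29.5 ± 5.42. Isg20 had 6.83 ± 2.30 per kilobase and rank 13050, and Isg15 had 2.88 ± 2.71 and rank 14811, and their ranges overlapped. Ifitm2 and Isg15, whose promoters hold the same ISRE letters, stood at opposite ends of the order. Exon length here was the union over all annotated transcripts, 5386 bases for Irf9 with 7 transcripts and 655 for Ifitm2 with 1. The union can be longer than any single transcript. Genes with many transcripts, the transcription factors among them, may thus be understated by amounts that were not measured.

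**Figure D1:**
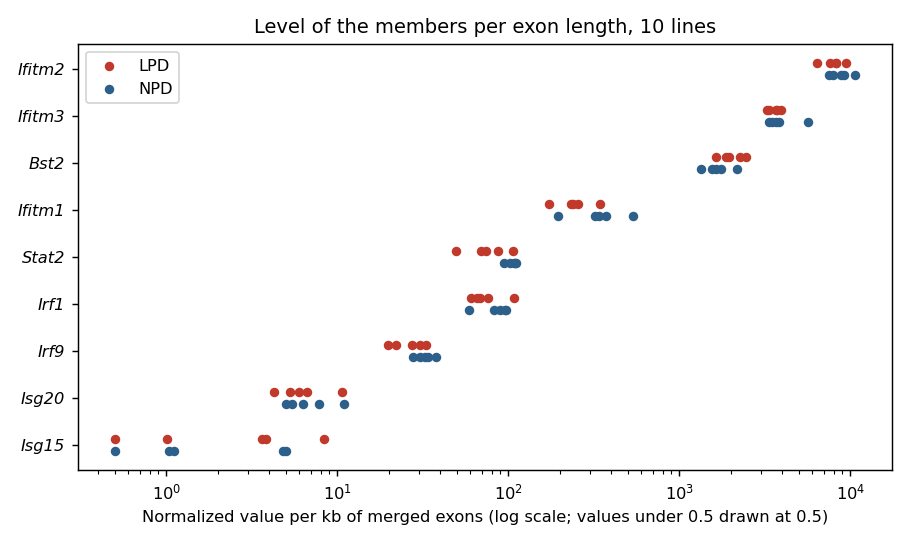
Value per kilobase of merged exons on a log axis for each of the 9 genes, with 1 point for each of the 5 LPD lines (red) and 5 NPD lines (blue). Ifitm2, Ifitm3 and Bst2 sit above 1000 in all 10 lines, whereas Isg20 and Isg15 sit below 11.

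Reads of close relatives limit some of these levels. Of the 31-base words in Ifitm2 transcripts, 55.5% also occur in another gene, 38.1% in the overlapping gene model Gm45717 on the same strand, so the level of Ifitm2 is uncertain. The share was 20.5% for Ifitm3, 11.6% for Ifitm1 and 12.8% for Isg15, and 0% for Bst2. Irf9 overlaps Rnf31 on the same strand, with 4.24% of its words shared with any other gene. Irf1 overlaps Gm17334 on the opposite strand. The strand setting of the libraries is not given in the sources used here.

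Diet was compared with limma on log2(value + 1) over 14354 genes, those whose mean reached 10. The fold changes below are LPD against NPD on this scale. Of the 9 genes, 8 were tested and Isg15 was below the limit. None passed adjustment, as in the whole table, where 0% of genes had an adjusted p under 0.1 (limma, Benjamini-Hochberg) and the smallest was 0.207. At an unadjusted p under 0.05, 1 of the 8 was called, Stat2, which was lower in LPD. The background at this threshold was 5.02% of all genes in either direction, 2.18% lower and 2.84% higher, and nothing is read from 1 gene of 8 against it. In 7 of the 8 the fitted value was lower in LPD, against 49.5% of all genes tested. The median of the 8 was -0.16, against 0.00 over all genes tested. That median was -0.26 without LPD line 40 and -0.24 without NPD line 8. It was -0.12 without LPD line 20 and likewise without NPD line 15. No member had groups that did not overlap, which was the case for 1.02% of all genes.

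Of Ifitm1, Ifitm2 and Ifitm3, Ifitm1 varied most between lines. Its values were 378, 261, 255, 189 and 279 in LPD lines 1, 4, 6, 20 and 40, and 351, 584, 372, 406 and 215 in NPD lines 8, 15, 21, 36 and 51. NPD line 15 was the highest and LPD line 20 the lowest, 3.09-fold apart. NPD lines 8, 21 and 51 lay within the LPD range. Ifitm1 had a mean of 272 ± 68.2 in LPD and 385 ± 133 in NPD (SD, n = 5 each, exact permutation test, two-sided, p = 0.127). The log2 fold change was -0.46 (SE 0.24, 95% interval -0.99 to 0.06), with an adjusted p of 0.994 by limma. It was -0.66 without NPD line 51 (unadjusted p = 0.00857, adjusted p = 0.908, limma), -0.30 without NPD line 15, and -0.25 without NPD lines 8 and 15 and LPD line 6, which had the highest sums of fibroblast markers.

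Ifitm2 was high in every line. It had values of 5421, 5403, 4980.4, 4173 and 6195 in LPD lines 1, 4, 6, 20 and 40, and 4927, 6028, 7015, 5162 and 5806 in NPD lines 8, 15, 21, 36 and 51. The groups overlapped over most of their range, with LPD line 20 lowest and NPD line 21 highest. LPD minus NPD came to -0.14 on the log2 scale (SE 0.12, 95% interval -0.40 to 0.11; exact permutation test, p = 0.31). It was -0.07 without LPD line 20 and likewise without NPD line 21. An interval this narrow leaves out a difference of 1 on the log2 scale in either direction.

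Ifitm3 differed in a single line. The values were 2267, 2502, 2664, 2219 and 2516 in LPD lines 1, 4, 6, 20 and 40, and 2591, 3841, 2355, 2274 and 2497 in NPD lines 8, 15, 21, 36 and 51. The other 9 lines lay between 2219 and 2664, and NPD line 15 stood above them. On the log2 scale, the difference was -0.13 (SE 0.13, 95% interval -0.41 to 0.15; exact permutation test, p = 0.508), and with NPD line 15 left out it was 0.00. That line also had the highest sum of fibroblast markers and the raised X-linked median given above. Whether either has a part in the Ifitm3 value was not tested.

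Bst2 was the only tested gene of the 9 with a higher mean in LPD. It had values of 2218, 1760.5, 1486, 1695 and 2051 in LPD lines 1, 4, 6, 20 and 40, and 1486, 1966, 1582, 1212 and 1405 in NPD lines 8, 15, 21, 36 and 51. LPD lines 1 and 40 lay above all NPD lines, and NPD lines 8, 15 and 21 were within the LPD range. The means were 1842 ± 292 and 1530.2 ± 279 (SD, n = 5 each, exact permutation test, p = 0.119). The log2 fold change was 0.27 (SE 0.14, 95% interval -0.03 to 0.57), with an unadjusted p of 0.0713 and an adjusted p of 0.994 by limma. Without the 3 lines of highest fibroblast marker sum, LPD line 6 and NPD lines 8 and 15, it was 0.46 with an unadjusted p of 0.00609 and an adjusted p of 0.999 by limma.

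Isg15 and Isg20 were near the limit of detection. Isg15 was at 0, 2.88, 2.76, 0.762 and 6.30 in LPD lines 1, 4, 6, 20 and 40, and at 0.780, 3.79, 0, 3.66 and 0.841 in NPD lines 8, 15, 21, 36 and 51. These values correspond to 0 to 5 reads per line, so no fold change is given and a difference between the diets was not detectable at this depth. Isg20 was at 7.89, 19.7, 11.1, 12.4 and 9.78 in the same LPD lines, and at 10.0, 20.3, 11.8, 14.6 and 9.34 in the same NPD lines. Both groups covered the same range, and each had a single line near 20, LPD line 4 and NPD line 15. Isg20 had a log2 fold change of -0.12 (SE 0.37, 95% interval -0.92 to 0.68; exact permutation test, p = 0.667).

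**Figure D2:**
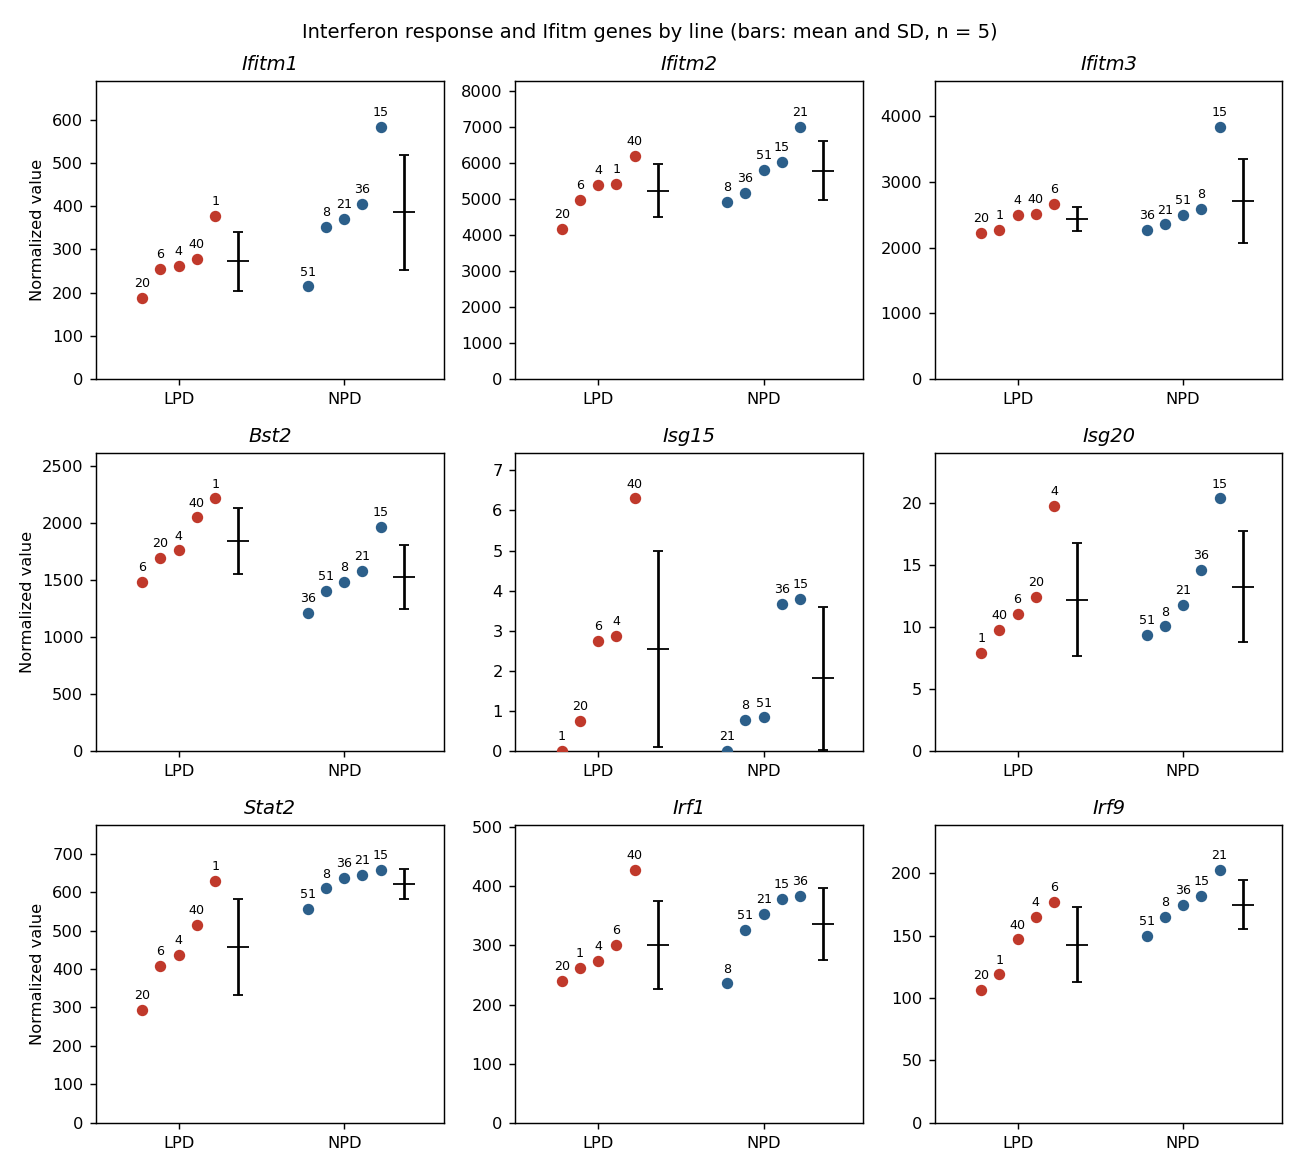
Normalized value of each of the 9 genes in the 5 LPD lines (red) and the 5 NPD lines (blue), ordered by value and labelled with the line number, on linear axes that start at 0, with the mean and SD of the 5 lines as bars. Groups overlap in every panel; in Stat2, LPD lines 4, 6, 20 and 40 lie below the lowest NPD line, 557, and in Ifitm3, NPD line 15 stands alone at 3841.

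Stat2, the STAT of the type I interferon route, showed the smallest p of the 9 genes. Its values were 628, 437, 408, 294 and 515 in LPD lines 1, 4, 6, 20 and 40, and 609, 657, 645, 637.5 and 557 in NPD lines 8, 15, 21, 36 and 51. In LPD lines 4, 6, 20 and 40 they lay below all NPD lines, whereas LPD line 1 was within the NPD range. The means were 457 ± 125 in LPD and 621 ± 40.05 in NPD (SD, n = 5 each, exact permutation test, two-sided, p = 0.0238, where 5 lines against 5 allow no p below 0.00794). In limma, Stat2 had a log2 fold change of -0.49 (SE 0.17, 95% interval -0.85 to -0.12), an unadjusted p of 0.0135 and an adjusted p of 0.839. Over all alternatives it was -0.61 to -0.34, with an adjusted p of 0.529 to 1 by limma. The unadjusted p was 0.082 without the 3 lines of highest fibroblast marker sum.

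Irf9, the DNA-binding partner of STAT2, was at 119, 165, 177, 107 and 147 in LPD lines 1, 4, 6, 20 and 40. In NPD lines 8, 15, 21, 36 and 51 it was at 165, 182, 202, 175 and 149.5. LPD lines 1, 20 and 40 lay below all NPD lines, and LPD lines 4 and 6 were among them. The means were 143 ± 29.9 and 175 ± 19.7 (SD, n = 5 each, exact permutation test, p = 0.0794), and the log2 fold change was -0.31 (SE 0.17, 95% interval -0.68 to 0.07).

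Irf1, the factor of the interferon gamma route, was at 262, 273, 301, 241 and 427 in LPD lines 1, 4, 6, 20 and 40. In NPD lines 8, 15, 21, 36 and 51 it was at 236, 379, 354, 384 and 327. The highest value was in LPD and the lowest in NPD, and the groups overlapped. The log2 fold change was -0.17 (SE 0.18, 95% interval -0.56 to 0.22; exact permutation test, p = 0.397). Single lines moved it, to -0.30 without LPD line 40, -0.29 without NPD line 8 and -0.10 without LPD line 20.

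**Figure D3:**
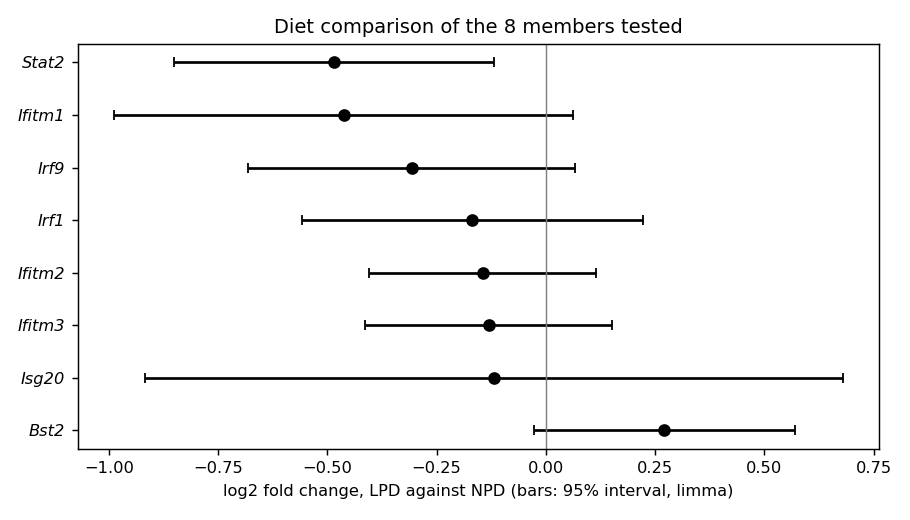
Log2 fold change of LPD against NPD for the 8 genes tested, with 95% intervals from limma. The interval of Stat2, -0.85 to -0.12, is the only one that leaves out 0, before any adjustment.

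The other genes of the pathway were followed in lists. Of 66 other interferon-stimulated genes, 59 had values, and 14 of these had a mean under 10. Examples are Ifit1, Ifit3 and Rsad2, antiviral genes that interferon strongly induces, with means of 1.69, 0.584 and 7.55. Pml, Mov10 and Trim25, which cells express without interferon, were the highest, with means of 3367, 3367 and 2464. Of the 45 tested, 11 were higher and 34 lower in LPD, with a median of -0.18, and -0.11 with array weights in limma. Over all genes tested, 49.5% were lower, and the direction counts of the lists below stand beside the same share. At an unadjusted p under 0.05, 1 of the 45 was higher and 2 were lower, against the 5.02% of all genes given above.

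Cxcl10, a chemokine, was at 18.1 to 23.6 in the LPD lines and at 3.57 to 17.6 in the NPD lines. All 5 LPD lines were above all 5 NPD lines (exact permutation test, p = 0.00794, the smallest that 5 against 5 allow). Groups did not overlap, in either direction, in 1.02% of all genes tested. Counts of Cxcl10 were low, as 1 read was worth 2.88 in LPD line 4, where its value was 21.1. The log2 fold change was 0.95 (SE 0.40), with an adjusted p of 0.953 by limma. Without NPD line 8, which had the value of 3.57, it was 0.61 with an unadjusted p of 0.0743 by limma. Oas1a, an enzyme that activates RNase L, had means of 23.0 ± 5.06 in LPD and 36.1 ± 9.04 in NPD (SD, n = 5 each, exact permutation test, p = 0.0159). Its log2 fold change was -0.63 (SE 0.28), and that of Mov10, an RNA helicase, was -0.18 (SE 0.08), with an adjusted p of 0.982 each by limma.

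The upstream machinery was present. All 18 genes for interferon receptors, JAK kinases, STATs and their inhibitors had values, and of the 17 tested 9 were higher and 8 lower, with a median of 0.05 and 0 at an unadjusted p under 0.05 by limma. The receptor subunits Ifnar1 and Ifnar2 had means of 591 and 281, and the kinase Jak1 1231. Socs3 and Ptpn11, which damp or relay cytokine signals, had means of 3062 and 2044, whereas Usp18, an interferon-induced inhibitor, was at 1.92. The interferon genes themselves were not analysed here.

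Among 10 other genes of the IRF family and its binding proteins, 8 were tested, with 3 higher, 5 lower and a median of -0.14. Irf3, the factor that nucleic acid sensors activate, had means of 446 ± 84.5 in LPD and 554 ± 48.7 in NPD (SD, n = 5 each, exact permutation test, p = 0.0397). Its log2 fold change was -0.33 (SE 0.13) and that of Irf2bpl 0.27 (SE 0.11), with an adjusted p of 0.952 each by limma. Irf7, the factor that amplifies the response, had a mean of 6.57. The median of this list was 0.08 with depth as a covariate.

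Of 23 sensors of foreign nucleic acid and their adaptors with values, 18 were tested, with 13 higher, 5 lower and a median of 0.10. Mavs, the adaptor of the RNA sensors, was the lower gene with the smallest p in this list. Its means were 395 ± 56.0 in LPD and 520 ± 43.3 in NPD, and all 5 LPD lines were below all 5 NPD lines (SD, n = 5 each, exact permutation test, p = 0.00794). A lack of overlap, in either direction, was seen in 1.02% of all genes tested. Mavs had a log2 fold change of -0.40 (SE 0.12), with an adjusted p of 0.681 by limma, and was -0.54 to -0.31 over the alternatives, with an adjusted p of 0.446 to 1. Aim2, a DNA sensor, was higher in LPD by 0.38 (SE 0.13), with an adjusted p of 0.839 by limma.

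The remaining Ifitm genes were low, with means of 17.0 for Ifitm7, 7.18 for Ifitm5, 4.77 for Ifitm10 and 1.37 for Ifitm6. Ifitm7 was the only one tested, with a log2 fold change of -0.27 (SE 0.34, exact permutation test, p = 0.349). Because Ifitm1 and Ifitm3 are known from primordial germ cells, 8 markers of these cells were also read. Of these, 1 was higher and 7 lower, with a median of -0.32 that was -0.150 without LPD line 20, -0.155 without NPD line 15 and -0.05 without the 3 lines of highest fibroblast marker sum. In this list, Kit and Prdm14 had log2 fold changes of -0.38 (SE 0.14) and -0.73 (SE 0.33), with adjusted p of 0.86 and 0.987 by limma, and Prdm14 was at -0.37 without LPD line 20.

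Lines of the same diet differed from each other. NPD line 15 was the highest line in 4 of the 9 genes, Ifitm1, Ifitm3, Isg20 and Stat2, and LPD line 20 was the lowest in 5, Ifitm1, Ifitm2, Ifitm3, Stat2 and Irf9. The spread between lines of 1 diet, as SD on the log2 scale, was 0.20 in Ifitm2, 0.23 in Ifitm3, 0.24 in Bst2 and 0.25 in Irf9. It was 0.30 in Stat2 and Irf1 and 0.44 in Ifitm1 and Isg20. For comparison, the median gene with a mean of at least 100 had 0.21. In the list of other interferon-stimulated genes, the median deviation was lowest in LPD line 20, at -0.048, and NPD line 51, at -0.047. It was highest in NPD lines 15 and 36, at 0.08. The summed value of that list was highest in LPD line 20, at 18841, against 18365 in NPD line 15.

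**Figure D4:**
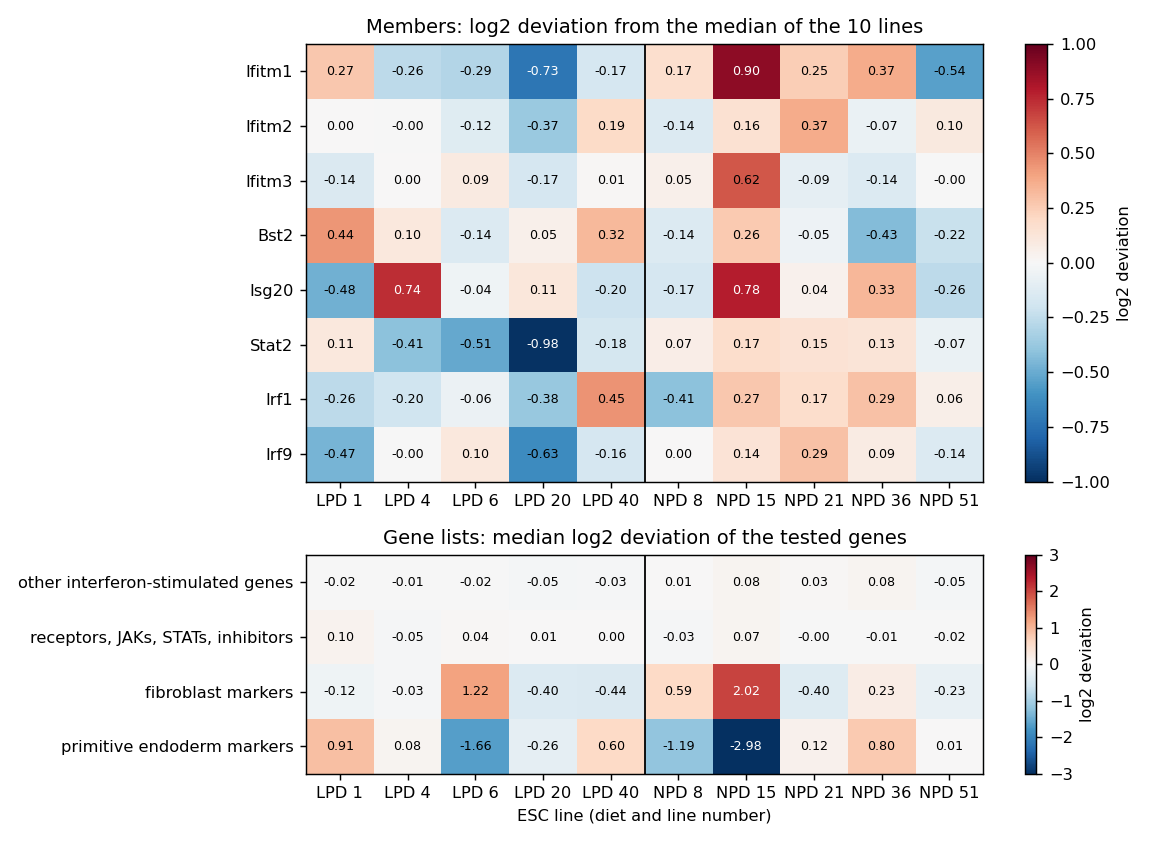
Log2 deviation of each line from the 10-line median for the 8 members tested (top) and the median deviation of 4 gene lists (bottom, with a wider colour scale), LPD lines left of the vertical line and NPD lines right of it, red above and blue below the median. NPD line 15 is the highest in Ifitm1, Ifitm3, Isg20 and Stat2 and has the highest fibroblast and lowest primitive endoderm list medians, and LPD line 20 is the lowest in Ifitm1, Ifitm2, Ifitm3, Stat2 and Irf9.

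Markers of primitive endoderm, the lineage next to the epiblast in the blastocyst, were lowest in the 3 lines with the highest fibroblast sums, with list medians of -2.98 in NPD line 15, -1.66 in LPD line 6 and -1.19 in NPD line 8. All 10 had fitted values above 0 for LPD against NPD, with a median of 0.46 and 0 at an unadjusted p under 0.05 by limma. This median rested on single lines, since it was -0.01 without NPD line 15, 1.01 without LPD line 6, 0.89 without NPD line 36, 0.25 without LPD line 40 and 0.21 without LPD line 1. It was -0.03 without NPD line 15 and LPD line 4, and 0.05 without the 3 lines. The part of these markers in the values of the interferon genes was not tested. Of 9 immune cell markers, 5 had values, with a sum of 132 to 258 in all lines, and Ptprc was at no more than 8.01. Cd68 and Cd3e had means of 107 and 68.4, and Csf1r was highest in NPD line 15, at 33.2.

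Of the 36 pairs among the 9 genes, 29 had a Pearson r above 0 over the 10 lines. At an unadjusted p under 0.05, 3 pairs were called, and 0 after adjustment of the Pearson tests over the 36 pairs. Ifitm1 and Stat2 had the highest r, 0.797 (permutation test, p = 0.00494, adjusted p = 0.178), and Spearman's rho was 0.891 (permutation test, p = 0.00115, adjusted p = 0.0414). Without LPD line 20 and NPD line 15, the lines farthest from the median of Ifitm1, r was 0.722. Within diets, after the mean of each diet was removed, it was 0.716. The lines share normalization, so these values describe how 2 genes vary together and nothing further.

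**Figure D5:**
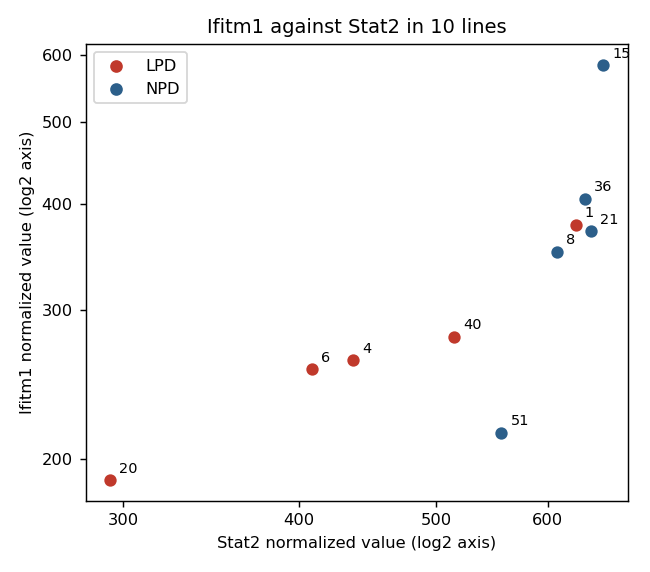
Value of Ifitm1 against that of Stat2 in the 10 lines on log2 axes, LPD in red and NPD in blue, labelled with line numbers. LPD line 20 is lowest in both genes, at 189 and 294, and NPD line 15 highest in both, at 584 and 657, and NPD line 51 falls below the trend of the rest.

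Ifitm2 and Irf1 came next with r of 0.687 (permutation test, p = 0.0261, adjusted p = 0.431), and r was 0.671 without the 2 farthest lines. Ifitm2 and Stat2 had r of 0.670, but 0.185 without LPD line 20 and NPD line 21, so that relation rested on these lines. For the neighbours Ifitm1 and Ifitm3, r was 0.557, and it turned to -0.678 without LPD line 20 and NPD line 15.

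The genes most like 3 of the members over the 10 lines were sought among 10325 genes with a mean of at least 100, as a description. For Ifitm3 these were Thoc2 (r = 0.967), Fubp1 (0.940) and Ubl4a (0.932), of which Thoc2 and Ubl4a lie on the X chromosome. The X-linked median was raised in NPD line 15, the line in which Ifitm3 was high. For Bst2 they were Pigf (0.933), Siva1 (0.924) and Cox7a2l (0.904), and for Stat2 Scoc (0.964), Csrnp3 (0.962) and Sh3glb2 (0.944). None of these 9 is a member of the interferon lists used here. They were picked as the highest of 10325 genes over 10 lines, so a high r is partly a result of that choice. For Ifitm3, r without NPD line 15 was not computed.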

How the data were processed

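The data are RNA sequencing of 10 mouse ESC lines, with 5 replicate lines for each diet. According to the study's methods, the authors trimmed reads with cutadapt, quantified GRCm38 transcripts with Salmon and tested transcripts with sleuth (version 0.30.0, from the submitters' processing notes). The values the authors deposited are a signal per gene, that is, estimated counts whose table is named for DESeq2 normalization. The step from transcripts to genes is not given in the sources used here. The table was matched to GENCODE M21 (19891 of 20206 genes). In 4269 genes with 1 transcript, 93.4% to 99.7% of the low values in each line were multiples of 1 read (tolerance 0.15), but whole reads were not recovered for the rest, so no count model was used.

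Values were compared as log2(value + 1), which understates the change of low genes, with limma 3.58.1 in R 4.3.3 (trend, no covariate, genes with a mean of at least 10) and Benjamini-Hochberg adjustment over all 14354 genes. Single genes were also tested by two-sided exact permutation over 252 assignments of lines, and correlations by 100000 permutations. Values per kilobase used merged exons. Python 3.11.15, numpy 2.4.6, pandas 2.3.3 and scipy 1.17.1 were used. Limma was also run on simulated data for this comparison, with 14354 genes of which 200 were changed. At an adjusted p under 0.1 it called 69% of the genes shifted by 1 log2 unit and 85% of those shifted by 2 units. It also called 23 genes that had no shift. The noise was drawn independently for each gene, so shifts that many genes of 1 line share were not simulated. These shares need not hold for the real lines.

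The genes and lists were chosen with earlier results of these data known. From each list, the text names up to 3 genes of the highest mean and those under an unadjusted p of 0.05. Ifit1, Ifit3, Rsad2, Ifnar1, Ifnar2, Usp18, Irf7, Ifitm6, Sox2, Lum, Dcn, Postn, Twist1, Loxl1, Ptprc and Csf1r were named after their values were seen. Alternatives were pseudocounts of 0.5 and 10, no filter, a mean of at least 100, rescaling to equal totals, quantile normalization, limma without a trend or with array weights, depth as a covariate, each line left out, and both lines with low Y-linked values left out. Leaving out the 3 lines with the highest fibroblast marker sums was chosen after seeing the data. A gene of these lists is not reported here, though it remains in their counts.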

Additional observations from a re-analysis of the deposited data

Results flagged for a closer look

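In a group of 5 lines, a line was singled out where its gap to the nearest other line exceeded the 95% critical value of Dixon's test. Of 88 groups examined, 3 were singled out, where chance gives about 1 in 20, or 4.4. The Y-linked gene Ddx3y was not in the groups examined, so it could not be among the 3. It was at 7.70 in NPD line 15 against 1110 to 1364 in the other NPD lines. In LPD line 4 it was at 174, against 1161 to 1493 in the other LPD lines. The count thus does not cover every gene named here, and nothing is read from 3 against 4.4. NPD line 15 stood apart in Ifitm3, with a value of 3841 against 2274 to 2591 in the other NPD lines. LPD line 6 stood apart in the fibroblast collagens Col1a1, with 1704 against 131 to 348 in the other LPD lines, and Col1a2, with 1121 against 46.6 to 97.8. Ifitm3 in LPD line 6, at 2664, was the highest of the LPD lines. Whether fibroblast RNA has a part in the Ifitm3 value was not tested.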

How the results depend on the processing

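The direction of Ifitm1, Ifitm2, Bst2, Stat2, Irf1 and Irf9 was kept under every alternative run. Ifitm3 ranged from -0.188 to 0.001 with 1 line left out, with 0.001 without NPD line 15. Isg20 ranged from -0.297 to 0.041 with 1 line left out, changing sign without LPD line 1 or NPD line 15, and was 0.006 without the 3 lines of highest fibroblast markers. The count of members under an unadjusted p of 0.05 was 1 to 3 with 1 line left out, 2 with array weights (Bst2 and Stat2), 2 with depth as a covariate (Stat2 and Irf9) and 2 without both lines of low Y-linked values (Bst2 and Stat2). It was 1 without the 3 lines of highest fibroblast markers, where that gene was Bst2. None of these had an adjusted p under 0.1 (limma). Over the whole table, genes at an adjusted p under 0.1 numbered 0 to 40 with 1 line left out, 40 of them without LPD line 40 and none a member, 1 with array weights and 1 without the 3 lines.

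The median of the members was -0.256 to -0.120 with 1 line left out and -0.317 with depth as a covariate. That of the other interferon-stimulated genes was -0.203 to -0.113 with 1 line left out, -0.130 with a mean of at least 100, -0.142 with quantile normalization and -0.106 with array weights. The receptor and JAK list had -0.003 to 0.055 with 1 line left out and -0.013 with a mean of at least 100. The IRF list had 0.080 with depth as a covariate, 0.023 without the lines of low Y-linked values and 0.021 without the 3 lines. The germ cell marker list had -0.050 without the 3 lines. The sensor list had 0.023 to 0.103 with 1 line left out, 0.016 with a mean of at least 100 and 0.027 without the 3 lines. With 1 line left out, 0 to 1 member pairs passed adjustment, 1 of them without NPD line 51. The named list genes Cxcl10, Oas1a, Mov10, Irf3, Irf2bpl, Mavs, Aim2, Kit and Prdm14 kept their direction in every alternative that tested them, with no adjusted p under 0.372 (limma). The cause of these shifts was not tested. No paired analysis was possible because the line numbers are not shared between the diets. Isg15, at 0 to 5 reads, is limited by depth.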
